A study of Mus musculus with 4 samples.

Results

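The genes described here encode parts of the contractile apparatus of skeletal muscle, measured in cultures of mouse keratinocytes: Acta1, Tnnt3, Tnni2, Myh3, Myh8, Myh1, Myh2, Myh4, Mylpf and Ckm. Members were the non-control probes that the array files name by 1 of these symbols, which gave 10 genes and 15 probes of the 30342 genes or targets and 39429 probes on the array. The study set Pla2g2f-/- against Pla2g2f+/+ keratinocytes, both from newborn C57BL/6 mice, on single-colour Agilent arrays. The 4 arrays held -/- cells with calcium, -/- cells without added calcium, +/+ cells with calcium and +/+ cells without added calcium, with 1 array per group. Cells of every group had been freed from whole skin with 0.05% collagenase A and kept in culture for 3 days, and the calcium phase with or without 1 mM CaCl2 lasted 48 h. RNA came from the pooled cells of 6 mice per genotype, so genotype and the preparation of the cells cannot be told apart. No group has a second array, no difference below has a replicate check, and no p-value is given.

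Skeletal muscle contracts when myosin heads of the thick filament pull on actin of the thin filament. Calcium released inside the fibre binds the troponin complex, which moves tropomyosin off the actin surface and lets the heads attach. Myosin heavy chains are made from a cluster of genes that are used one after another: an embryonic chain (Myh3) and a perinatal chain (Myh8) come first in developing and regenerating fibres, and adult fast fibres use Myh2, Myh1 and Myh4. Keratinocytes build none of these sarcomeres and contract with non-muscle myosin and actin. Newborn mouse skin carries a sheet of skeletal muscle beneath the dermis, the panniculus carnosus, and the smooth muscle of hair follicles and vessels.

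Each member was read through probes of 60 bases, and some of these are printed here with the bases of the array files, 5′ to 3′. The first pair matches the embryonic and the perinatal chain at chr11:66915107-66915166 and chr11:67121925-67121984 (mm9). The Myh3 probe of this pair is the dimmer one of that gene, and the Myh8 probe is the brightest of its gene. Capitals mark the bases shared when the pair is aligned, which is 29 of 48 aligned bases.

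Myh3: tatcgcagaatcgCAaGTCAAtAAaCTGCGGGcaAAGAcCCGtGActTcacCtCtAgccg
Myh8: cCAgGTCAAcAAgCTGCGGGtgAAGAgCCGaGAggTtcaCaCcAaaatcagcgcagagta

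At 60.4% of aligned bases, this was the highest share among pairs of member probes other than the pair of Tnnt3 probes. The Tnnt3 probes, at chr7:149698467-149698526 and chr7:149698500-149700262 (mm9), overlap by 27 bases, in capitals, and are therefore not independent readings. The second of them spans 1763 bases of the genome, so it crosses at least 1 splice junction.

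Tnnt3 brightest: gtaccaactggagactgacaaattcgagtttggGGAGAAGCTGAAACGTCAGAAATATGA
Tnnt3 second: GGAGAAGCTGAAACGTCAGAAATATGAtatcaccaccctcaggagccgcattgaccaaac

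The single Acta1 probe lies at chr8:126416197-126416256 (mm9) and has an open reading frame. Actin genes are alike in their coding sequence, and its match to the transcripts of other actins was not tested.

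Acta1: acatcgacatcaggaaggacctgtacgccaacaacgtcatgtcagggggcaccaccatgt

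The mm9 positions of the 5 Myh genes' probes run over 206.878 kb of chromosome 11, in the order Myh3, Myh2, Myh1, Myh4 and Myh8. Tnni2 and Tnnt3 probes lie within 70.012 kb on chromosome 7, with 1 protein-coding gene, Lsp1, between the genes in RefSeq. Whether a probe lies in an exon of the coding part or in the tail of its message was not annotated in the files used.

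Levels are given as a percent of the array's 75th percentile of signal over its non-control spots, which stood at 3299, 2889, 2737 and 2638 intensity units in -/- cells with and without calcium and in +/+ cells with and without calcium. Between 67.0% and 68.6% of probes were well above background by the scanner software. A level belongs to its probe and cannot be set against that of another probe. Differences are on the log2 scale, with the error that the scanner software assigned to the spots, which covers the spot and not the cells. Of the 17 keratinocyte markers found, 16 were well above background on all 4 arrays. The keratin gene Krt5 of the basal layer had levels of 10569% and 12909% in -/- cells with and without calcium, against 15702% and 14863% in +/+ cells with and without calcium. The targeted gene Pla2g2f was well above background on all 4 arrays, at 8.66% and 7.29% in -/- cells with and without calcium and 12.2% and 9.82% in +/+ cells with and without calcium. The labels do not say which stretch of it was deleted, so this probe does not check the genotypes, which are used as labelled.

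Members fell into 3 classes by detection. For 6 genes (Acta1, Tnnt3, Tnni2, Myh3, Myh8 and Mylpf) the brightest probe was well above background on all 4 arrays, for Myh4 on 1 array, and for Myh1, Myh2 and Ckm on none. Of all 30342 genes or targets, 19227 were well above background on all 4 arrays by their brightest probe, a share like that of the members. By probe, 9 of 15 were well above background on all 4 arrays, 2 on some and 4 on none. By their brightest probes the embryonic and perinatal heavy chains were thus measured on every array. Of the adult fast chains Myh4 was detected on 1 array and Myh1 and Myh2 on none. Myh3 and Myh8 had several probes and each adult chain a single one, so the chances of detection were uneven.

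**Figure D1:**
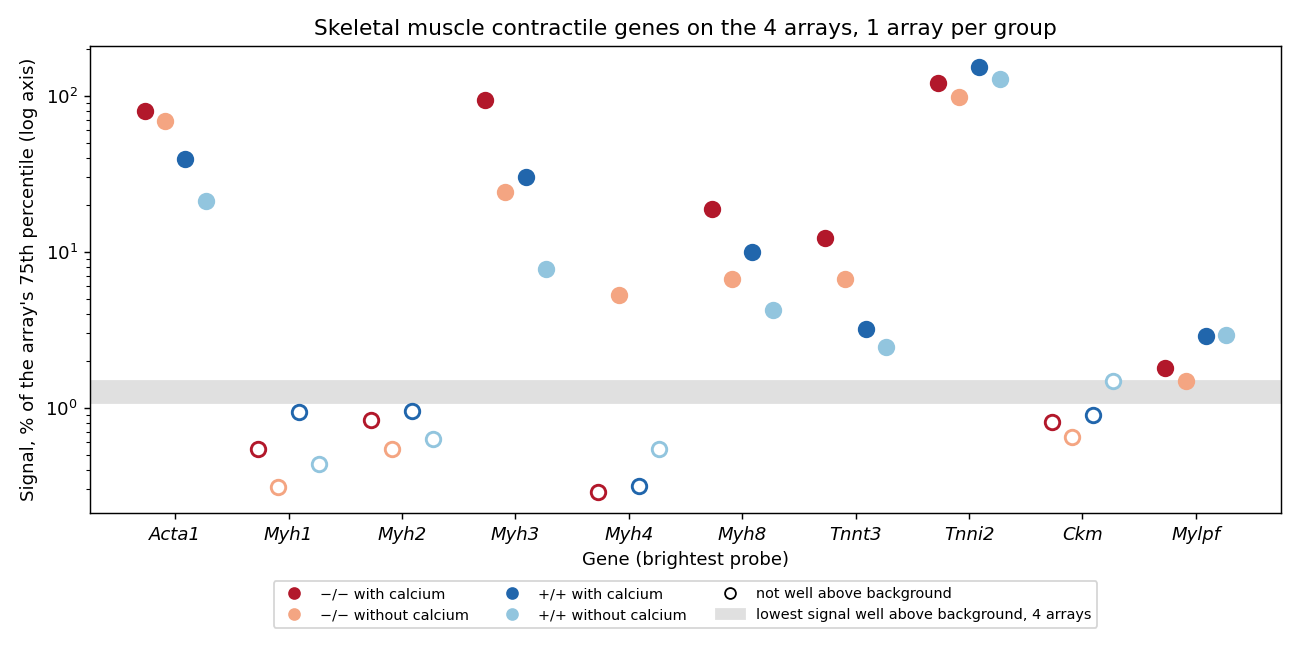
Level of each of the 10 genes by its brightest probe, as a percent of the array's 75th percentile on a log axis, on the 4 arrays. Filled points are well above background and open points are not, and the grey band spans the lowest signal well above background on the 4 arrays, 1.08% to 1.49%. Acta1, Myh3, Myh8 and Tnnt3 are highest in -/- cells with calcium and lowest in +/+ cells without calcium, and Mylpf and Tnni2 are lowest in -/- cells without calcium.

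In the thin filament, Acta1, the skeletal muscle actin, had levels of 79.4% in -/- cells with calcium and 69.0% in -/- cells without, against 39.3% in +/+ cells with calcium and 21.2% in +/+ cells without. Both -/- arrays were above both +/+ arrays. With calcium it was 2.02-fold higher in -/- cells (log2 difference 1.02, scanner error 0.20), and without calcium 3.26-fold higher (log2 difference 1.70, scanner error 0.21). The difference with calcium lay at the 2-fold line and came to 0.97 with another background correction (normexp) and 0.99 with quantile scaling. The step between the -/- arrays was 0.20 on the log2 scale, within 2 times the scanner error, and the other steps were beyond it. Fewer cells that express a gene and less RNA of it per cell cannot be told apart in these bulk samples, here or for the members below.

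Tnnt3, the fast muscle troponin T that ties the troponin complex to tropomyosin, had the same order of arrays as Acta1. Its brightest probe stood at 12.2% in -/- cells with calcium and 6.71% in -/- cells without, against 3.21% in +/+ cells with calcium and 2.45% in +/+ cells without. It was 3.82-fold higher in -/- cells with calcium (log2 difference 1.93, scanner error 0.24) and 2.74-fold higher without (log2 difference 1.45, scanner error 0.28). The step between the +/+ arrays was within 2 times the scanner error. Its second probe read 9.14% and 4.93% in -/- cells with and without calcium, against 3.45% and 3.71% in +/+ cells with and without calcium. That probe gave a genotype difference of 1.41 with calcium and 0.41 without on the log2 scale, so the size of the difference without calcium depends on the probe. With normexp background correction the brightest probe gave 0.73 without calcium, below 2-fold.

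Tnni2, the fast muscle troponin I that holds actin and myosin apart at rest, did not follow this order. It stood at 120.3% in -/- cells with calcium and 97.5% in -/- cells without, against 152% in +/+ cells with calcium and 128% in +/+ cells without. Both +/+ arrays were above both -/- arrays, yet no step between neighbouring arrays was beyond 2 times the scanner error. The log2 differences between genotypes were -0.34 with and -0.39 without calcium (scanner error 0.20 each), and they turned to 0.26 and 0.05 when the arrays were scaled to the keratinocyte markers. Tnni2 thus had no genotype difference beyond 2 times the scanner error in either condition, and its direction depended on the scaling. All genes compared had medians of -0.16 with and -0.18 without calcium.

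Among the heavy chains, Myh3, the embryonic one, had a level of 94.0% in -/- cells with calcium, 24.1% in -/- cells without, 29.9% in +/+ cells with calcium and 7.78% in +/+ cells without. The array of -/- cells with calcium stood above the rest, the array of +/+ cells without calcium stood below them, and the remaining pair differed by 0.31 on the log2 scale, within 2 times the scanner error. Myh3 was 3.15-fold higher in -/- cells with calcium (log2 difference 1.65, scanner error 0.20) and 3.09-fold higher without (log2 difference 1.63, scanner error 0.22). Calcium went with a 3.91-fold higher level in -/- cells (log2 difference 1.97) and a 3.84-fold higher one in +/+ cells (log2 difference 1.94). The difference between these calcium differences was 0.03 on the log2 scale, with a scanner error of 0.30.

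The second Myh3 probe, printed above, gave the same order of arrays, with 61.0% and 15.3% in -/- cells with and without calcium and 19.6% and 5.83% in +/+ cells with and without calcium. Its genotype differences were 1.64 with and 1.39 without calcium, and its calcium differences 1.99 in -/- cells and 1.75 in +/+ cells. Of all other probes on the array, only that of Myh15 shared a run of at least 18 bases with it. The Myh15 probe was not well above background on any array.

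Myh8, the perinatal chain, ran in the order of Myh3. Its brightest probe stood at 18.9% in -/- cells with calcium, 6.64% in -/- cells without, 9.92% in +/+ cells with calcium and 4.25% in +/+ cells without, and each step was beyond 2 times the scanner error. It was 1.90-fold higher in -/- cells with calcium (log2 difference 0.93, scanner error 0.21) and 1.56-fold higher without (log2 difference 0.64, scanner error 0.26). Calcium went with a 2.84-fold higher level in -/- cells and a 2.33-fold higher one in +/+ cells. With normexp background correction the calcium difference of +/+ cells was 0.75 on the log2 scale, below 2-fold.

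The other Myh8 probes were dim and did not repeat this order. The second read 2.92% and 1.55% in -/- cells with and without calcium and 1.85% and 3.06% in +/+ cells with and without calcium, so the array of +/+ cells without calcium was its highest. By it Myh8 was 1.58-fold higher in -/- cells with calcium and 1.97-fold lower without (log2 difference -0.98). The third was well above background on the array of -/- cells with calcium, at 1.51%, and on no other, and the fourth on none. The direction of the Myh8 genotype difference without calcium, and of its calcium difference in +/+ cells, therefore depended on the probe.

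**Figure D2:**
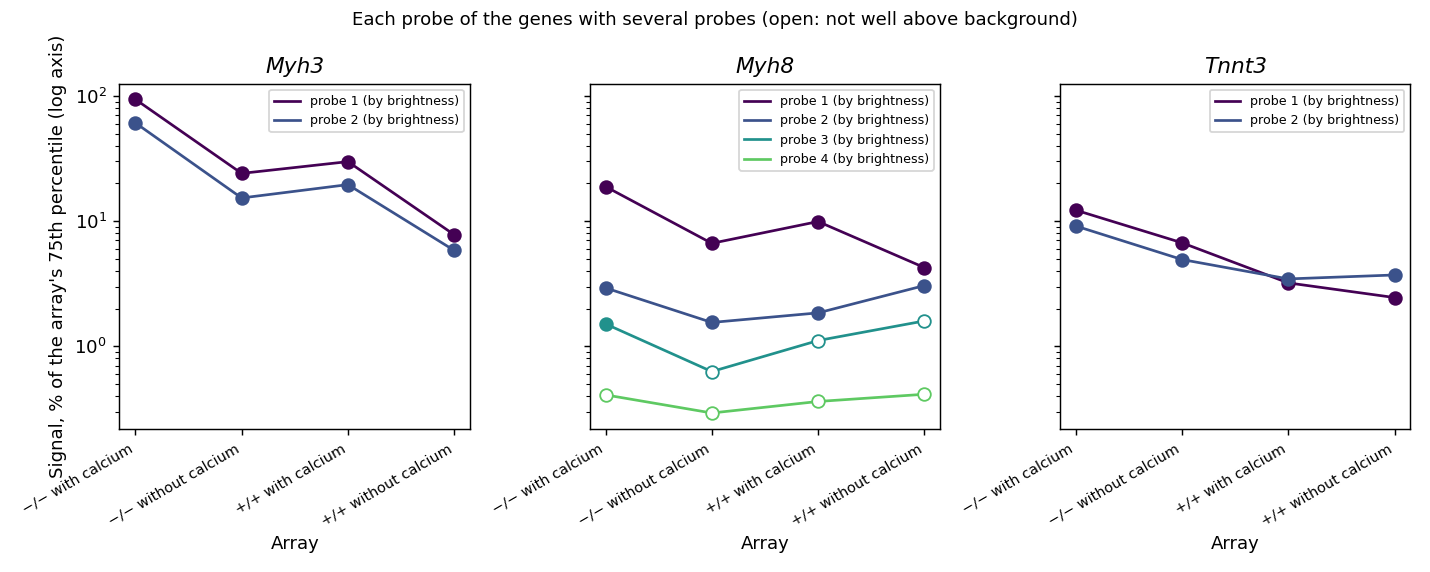
Level of every probe of Myh3, Myh8 and Tnnt3 as a percent of the array's 75th percentile (log axis) on the 4 arrays, with lines joining the readings of 1 probe and open points not well above background. The Myh3 probes run in parallel, while the second Myh8 probe is highest in +/+ cells without calcium, where the brightest Myh8 probe is lowest.

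Of the adult fast chains, Myh4 (type IIb fibres) was well above background on 1 array, at 5.30% in -/- cells without calcium, and stood at 0.288% in -/- cells with calcium, 0.313% in +/+ cells with calcium and 0.543% in +/+ cells without, none well above background. Against the limit of detection it was at least 3.55-fold higher in -/- than in +/+ cells without calcium, and at least 4.33-fold lower in -/- cells with than in -/- cells without calcium. With normexp background correction the genotype bound was 0.80 on the log2 scale, below 2-fold. All of this rests on 1 spot. Pixels within that spot varied by 29.5% of their mean, against a median of 16.0% over the 1730 spots of that array within 20% of its signal, and 0.867% of those were at least as uneven. The scanner software did not mark it as an outlier, and the part of spot quality in its signal was not tested. Myh1 (type IIx) stood between 0.308% and 0.944% and Myh2 (type IIa) between 0.543% and 0.956% over the 4 arrays, none well above background, so no order is read from them.

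Mylpf, the fast regulatory light chain that sits on the neck of the myosin head, was dim, at 1.80% in -/- cells with calcium and 1.48% in -/- cells without, against 2.90% and 2.91% in +/+ cells with and without calcium. Both +/+ arrays were above both -/- arrays. It was 1.61-fold lower in -/- cells with calcium (log2 difference -0.69, scanner error 0.31) and 1.96-fold lower without (log2 difference -0.97, scanner error 0.33), at levels close to the limit of detection. Scaling to the keratinocyte markers gave -0.09 with and -0.53 without calcium, and normexp background correction -0.44 and -0.61. Ckm, the muscle creatine kinase that buffers ATP, lay between 0.654% and 1.47% and was not well above background on any array.

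Counted together, 3 of the 6 genes compared with calcium (Acta1, Myh3 and Tnnt3) were higher in -/- cells by 2-fold or more and none was lower by that much. Of all 21565 genes compared, 6.56% were higher by 2-fold or more and 3.05% lower. The median difference was 0.97 over the 6 members and -0.16 over all genes. Without calcium it was 4 of 7 genes (Acta1, Myh3, Tnnt3 and the bound of Myh4) and none lower, beside 4.65% higher and 4.32% lower of 21346 genes. The medians were 1.45 over the 7 and -0.18 over all genes. Myh4 entered through the array where it was high, so it had to differ, and the 6 genes measured on both arrays had a median of 1.05. The genotype differences with and without calcium come from different arrays, but the cells of a genotype share their pool of mice.

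For calcium, 2 of 7 genes in -/- cells (Myh3 and Myh8) were higher with than without it by 2-fold or more and Myh4 was lower by its bound, where 2.99% of 21428 genes were higher and 0.602% lower. Myh4 entered through the array without calcium, where it was high, so its bound could not come out higher. In +/+ cells Myh3 and Myh8, of 6 genes, passed 2-fold upwards and none downwards, where 2.47% of 21130 genes were higher and 1.01% lower. The median calcium differences of the members were 0.30 in -/- cells and 0.64 in +/+ cells, against -0.03 and -0.07 over all genes. Over the 6 genes measured on both -/- arrays, which leaves out Myh4, the median was 0.59. The embryonic and perinatal heavy chains thus had the largest upward calcium differences of the members in both genotypes by their brightest probes. For Acta1 the calcium difference was 1.15-fold in -/- cells and 1.85-fold in +/+ cells, both upwards. For Tnnt3 it was 1.82-fold in -/- cells and 1.31-fold in +/+ cells, also upwards by its brightest probe. In +/+ cells that difference was within 2 times the scanner error, and the second Tnnt3 probe gave -0.10 on the log2 scale. Tnni2 and Mylpf differed by 0.30 and 0.28 in -/- cells and by 0.25 and -0.00 in +/+ cells on the log2 scale. The calcium difference in -/- cells minus that in +/+ cells was under 2-fold by the brightest probe for each of the 6 genes measured on all 4 arrays, and ran between -0.69 for Acta1 and 0.48 for Tnnt3, where 1.91% of 19227 genes passed 2-fold upwards and 0.629% downwards. For Myh8 this depended on the probe: it was 0.28 by the brightest probe, 1.64 (3.12-fold) by the second, and past 2-fold by the mean of its probes. The second Tnnt3 probe gave 0.995 (1.99-fold), against the 0.48 of the brightest. The genotype and calcium comparisons share arrays, so an array that stands high or low enters several of them.

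**Figure D3:**
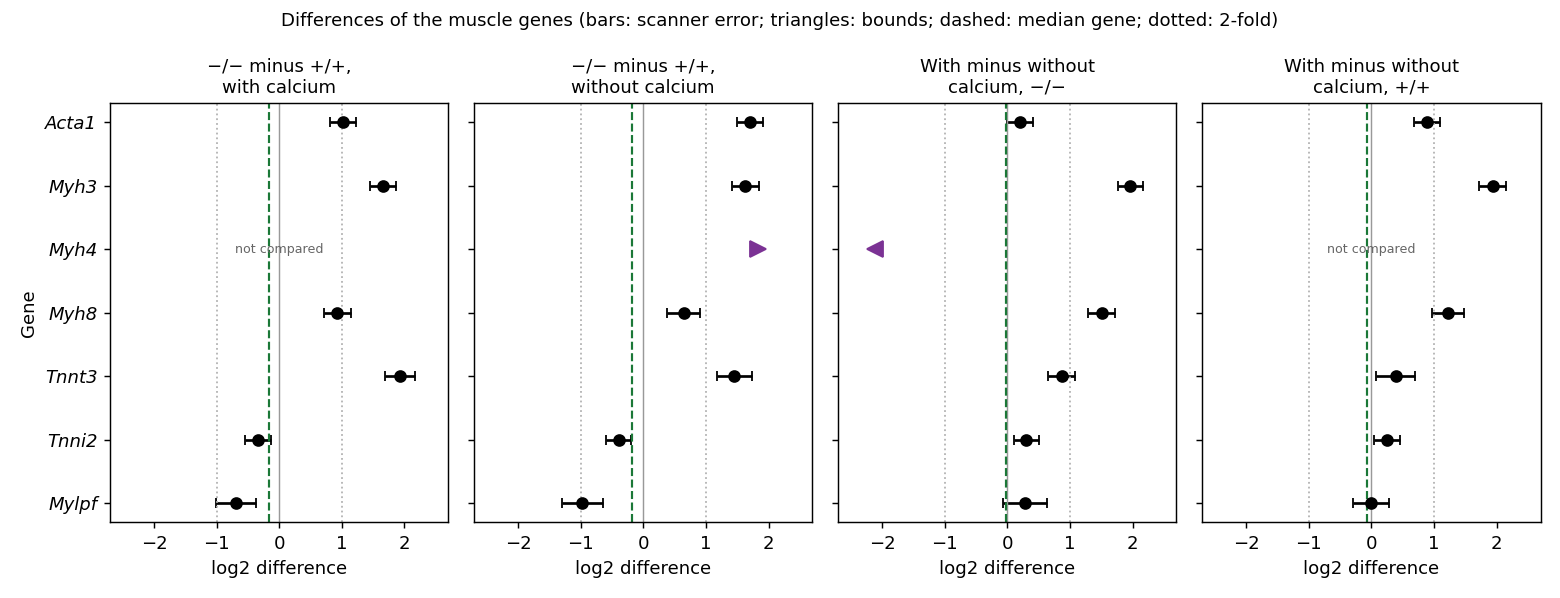
Log2 difference of each compared gene by its brightest probe for the genotype (-/- minus +/+) with and without calcium and for calcium (with minus without) in -/- and in +/+ cells. Bars are the scanner error of the difference, triangles are bounds, the dashed line is the median of all genes compared and dotted lines mark 2-fold. Acta1, Myh3 and Tnnt3 lie at or beyond 2-fold in both genotype panels, and Myh3 and Myh8 in both calcium panels.

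Averaged over the 7 members detected on any array, the pattern over the arrays was 0.58 and 0.15 in -/- cells with and without calcium and -0.04 and -0.69 in +/+ cells with and without calcium, as log2 levels centred on each gene's mean. Among 15115 genes outside the lists, the nearest to this pattern were Pthlh (parathyroid hormone-like peptide) at a Euclidean distance of 0.112, Sybu (syntabulin) at 0.120, Tgfb2 (a transforming growth factor beta) at 0.129, Pnpla3 (a patatin-like lipase) at 0.139 and Copz2 (a coat protein subunit) at 0.167. The likeness is over 4 arrays only. These genes were picked as the closest, and the pattern averages members that run in different orders. The members' own distances to it were 0.669 for Acta1 to 1.89 for Myh4.

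Promoters of 8 of the 10 genes could be matched in RefSeq (GRCm38.p6), and those of Tnnt3 and Tnni2 were not. The 250 bases before the gene start are printed for 3 matched genes whose brightest probes had the highest reading in -/- cells with calcium and the lowest in +/+ cells without, with motif matches on either strand in capitals. They lie at chr8:123894776-123895025 (minus strand), chr11:67078050-67078299 (plus strand) and chr11:67276874-67277123 (plus strand).

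Acta1 promoter: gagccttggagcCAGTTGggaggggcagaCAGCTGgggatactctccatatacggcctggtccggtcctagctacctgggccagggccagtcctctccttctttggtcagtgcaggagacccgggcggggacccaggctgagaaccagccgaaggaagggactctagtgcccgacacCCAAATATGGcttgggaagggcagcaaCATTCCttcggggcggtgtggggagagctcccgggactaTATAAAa
Myh3 promoter: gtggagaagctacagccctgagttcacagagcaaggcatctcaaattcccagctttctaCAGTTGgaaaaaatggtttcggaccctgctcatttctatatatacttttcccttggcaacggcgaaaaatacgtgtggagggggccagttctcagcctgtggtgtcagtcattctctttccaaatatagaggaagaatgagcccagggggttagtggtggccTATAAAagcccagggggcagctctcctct
Myh8 promoter: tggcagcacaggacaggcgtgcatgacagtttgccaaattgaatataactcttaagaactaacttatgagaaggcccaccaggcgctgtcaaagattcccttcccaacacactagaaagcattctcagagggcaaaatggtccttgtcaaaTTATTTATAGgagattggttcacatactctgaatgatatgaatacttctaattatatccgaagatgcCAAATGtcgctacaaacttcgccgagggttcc

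An E-box, CANNTG, the letters bound by myogenic helix-loop-helix factors, was in 6 of the 8 promoters and in 66.2% of 32851 promoters of the same length. The CATTCC letters of the MCAT element, bound by TEAD factors, were in 3 of 8 and in 12.6% of all. TATAAA was in 5 of 8 and in 12.4% of all. A CArG box, the site of serum response factor, was in 2 of 8 (Acta1 and Myh4) and in 1.47% of all, and a MEF2 motif in 3 of 8 (Myh1, Myh4 and Myh8) and in 2.92% of all. In those 3 promoters the TATAAA letters also match on the other strand inside the MEF2 motif, which is therefore counted for both. Myh8, measured on all arrays, and Myh1, detected on none, both held the MEF2 motif, and Myh2 held none of the 5 motifs. A match describes letters and not binding.

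Other muscle genes, from lists of known function, did not move as a block. For the counts of all lists below, the shares over all genes serve as the measure. With calcium 6.56% were at least 2-fold higher in -/- cells and 3.05% lower, and without calcium 4.65% and 4.32%. In the thick filament and M band list 1 of 9 compared genes was at least 2-fold higher in -/- cells both with and without calcium, with medians of 0.63 and 0.00. It was Myl1, the fast essential light chain, at 90.9% and 46.0% in -/- cells with and without calcium, against 35.0% and 18.1% in +/+ cells with and without calcium, 2.60-fold higher in -/- cells with calcium and 2.55-fold without. The array order of Myl1 was that of Acta1 and Tnnt3. Ttn, the giant spring titin, was 0.91 higher with and 0.93 higher without calcium on the log2 scale.

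In the thin filament list 3 of 9 genes with calcium and 2 of 7 without were at least 2-fold higher in -/- cells. Tnnc2, the calcium-binding troponin C of fast fibres, stood at 78.0% and 37.7% in -/- cells with and without calcium, against 21.8% and 14.4% in +/+ cells with and without calcium, 3.58-fold and 2.62-fold higher in -/- cells. Of the fast troponin complex, Tnnc2 and Tnnt3 were thus past 2-fold by their brightest probes, while the Tnni2 difference was within 2 times its scanner error. Tmod1, which caps the pointed end of actin, was at least 3.58-fold higher with and at least 2.89-fold higher without calcium. Actn2, the Z disc actinin, was at least 2.07-fold higher with calcium. Tmod1 and Actn2 were not well above background in +/+ cells, so their bounds could not come out lower. Among the list's genes measured on both arrays of a genotype comparison, only Tnnc2 passed 2-fold.

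Of the Z disc and assembly genes 1 of 16 with calcium and 1 of 15 without was at least 2-fold higher, Trim63, a ubiquitin ligase of muscle wasting, by a log2 difference of at least 3.47 with and of 3.17 without calcium. Of the genes of excitation and calcium handling it was 1 of 19 with calcium and 1 of 17 without. That gene was Sln, sarcolipin, which restrains the calcium pump, at least 5.42-fold higher with and at least 3.35-fold higher without calcium. Sln was not well above background in +/+ cells, nor was Trim63 in +/+ cells with calcium, so these bounds could not come out lower. The counts of both lists were near the shares over all genes, 6.56% with and 4.65% without calcium. The receptor Ryr1, which releases calcium in the fibre, differed by 0.22 with and -0.61 without calcium, and the pump Atp2a1 by -0.18 and -0.35.

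Of the muscle energy genes 2 of 13 were at least 2-fold higher in -/- cells in both conditions, Cox8b (9.91-fold with and 11.7-fold without calcium) and Cox7a1 (4.48-fold and 3.55-fold), both subunits of cytochrome c oxidase. These are also expressed in brown fat, and all 8 compared of 10 adipocyte markers were at least 2-fold higher in -/- cells in both conditions. The part of fat cells in the Cox8b and Cox7a1 differences was not tested. The heart actin Actc1, which developing skeletal muscle also uses, was filed in this list and is counted among its 13 compared genes. It stood at 203.7% and 126.6% in -/- cells with and without calcium, against 211% and 109.0% in +/+ cells with and without calcium. Actc1 was without the genotype difference of Acta1.

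Among myogenic regulators and satellite cell genes, 3 of 16 were higher by 2-fold or more and 1 lower in -/- cells with calcium, and 3 of 17 higher and 2 lower without. Chodl, a lectin, was at least 4.78-fold higher with and at least 4.54-fold higher without calcium, and the laminin receptor Itga7 3.19-fold and 2.99-fold. Chodl was not well above background in +/+ cells, so its bounds could not come out lower. The factor Myod1, which commits cells to the muscle lineage, was not well above background in -/- cells and was at least 2.09-fold lower there without calcium. That bound could not come out higher. Myogenin (Myog), which drives differentiation, stood at 18.7% and 17.3% in -/- cells with and without calcium, against 25.1% and 18.7% in +/+ cells with and without calcium. The satellite cell factor Pax7 stood between 1.96% and 3.15% on the 4 arrays and Myf5 was not well above background on any. Sarcomere genes higher in -/- cells were thus not accompanied by higher Myod1 or Myog.

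Slow and cardiac sarcomere genes had medians of 0.08 with and -0.29 without calcium, and none of 14 with and 1 of 12 without calcium was at least 2-fold higher in -/- cells, while 2 and 0 were lower by that much. Non-muscle contractile genes had medians of -0.31 and -0.11, with none of 14 past 2-fold in either condition. Smooth muscle and pericyte genes had medians of 0.35 and 0.36, with 3 of 12 at least 2-fold higher in each condition and, without calcium, 1 at least 2-fold lower, the receptor Notch3 (log2 difference -1.09). They include Acta2, the smooth muscle actin, at 1242% and 1755% in -/- cells with and without calcium, against 427% and 315% in +/+ cells with and without calcium. Unlike Acta1, Acta2 was lower with than without calcium in -/- cells, by a log2 difference of -0.50, while in +/+ cells it was 0.44 higher. Cnn1 had the largest genotype difference of this list, 3.55-fold higher in -/- cells with and 7.91-fold without calcium. It had the array order of Acta1, at 90.6% and 73.0% in -/- cells with and without calcium, against 25.5% and 9.23% in +/+ cells with and without calcium.

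Markers of other cells differed with the genotype as well. Mast cell markers had medians of 3.74 with and 3.16 without calcium, and all 8 compared were at least 2-fold higher in -/- cells in each condition. Their summed level was 1139% and 1145% of the 75th percentile in -/- cells with and without calcium, against 169% and 152% in +/+ cells with and without calcium. Adipocyte markers had medians of 3.08 and 2.88, with summed levels of 10859% and 13183% in -/- cells with and without calcium, against 2658% and 3964% in +/+ cells with and without calcium.

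Of 11 macrophage and myeloid markers, 11 with and 10 without calcium were at least 2-fold higher, with medians of 3.52 and 2.18 and summed levels of 4188% and 2762% in -/- cells with and without calcium, against 411% and 589% in +/+ cells with and without calcium. Fibroblast markers had medians of 1.11 and 0.72, with 8 of 12 at least 2-fold higher with calcium and 1 of 11 without. The summed level of the 11 fibroblast markers read on every array was 25967% and 24134% in -/- cells with and without calcium, against 13638% and 15287% in +/+ cells with and without calcium. The spot of Col1a1 was dropped as an outlier on the array of -/- cells without calcium. Endothelial markers had medians of -0.61 and -0.47, and Schwann cell markers of 0.83 and 0.90. Keratinocyte markers had medians of -0.38 and -0.25. Well above background on all 4 arrays were 8 of 9 mast cell, 8 of 10 adipocyte, 10 of 11 macrophage and myeloid, 11 of 12 fibroblast, 6 of 7 endothelial and 7 of 7 Schwann cell markers. The part of these cells in the muscle gene differences was not tested.

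**Figure D4:**
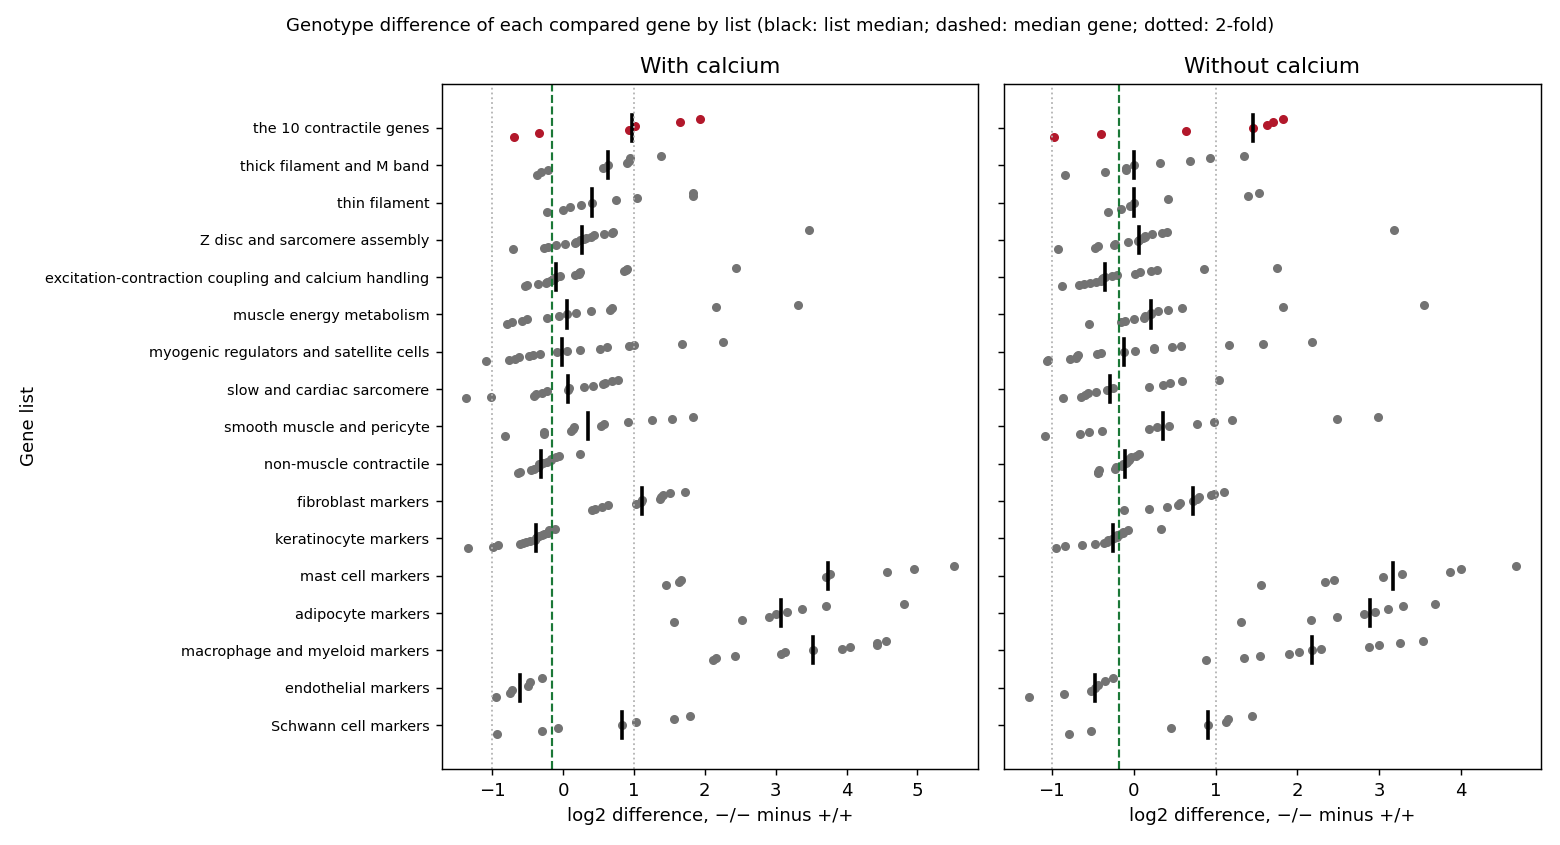
Log2 difference between -/- and +/+ cells of each compared gene, with and without calcium, for the 10 contractile genes and 16 other lists, with bounds plotted at the bound. Black marks are list medians, the dashed line is the median of all genes compared and dotted lines mark 2-fold. The contractile genes run from -0.97 to 1.83 without calcium, and the mast cell, adipocyte and myeloid lists lie farthest to the right.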

How the data were processed

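The deposited scanner signal is an intensity in Cy3, made by the authors using Agilent Feature Extraction 11.5.1.1 (per the submitters' processing notes), and has its background subtracted, per the file headers. The deposited value table is a ratio, each signal divided on a linear scale by a constant of its array, which over 44397 spots held within 2.3e-07 and lay within 0.00058 of the 75th percentile in relative terms. Its medians were 0.0645, 0.0612, 0.0623 and 0.0660 in -/- cells with and without calcium and +/+ cells with and without calcium. It served as an alternative. Per the labels, 200 ng of RNA was labelled for each array.

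Here, outlier spots (105 to 116 per array, as marked by the scanner software) were dropped, and each log2 signal was set relative to the 75th percentile of the 43020 non-control spots of its array. No spot was saturated. Repeated probes (399 probes of 10 spots) had a median SD of 0.07 on each array, and precision is limited by there being 4 arrays. Genes were named through accessions for 27508 probes and by the file's name for 11921, and none became or ceased to be a member by this. A gene was read from its brightest probe and compared where 1 or both arrays had it well above background. A dim side was replaced by the higher of its own value and the lowest signal well above background on that array, and the result is a bound. A bound can only point towards the array where the gene was detected, and this holds for every bound counted. Genes were counted at 2-fold. With 1 array per group no test was run. All members are named, and of each other list up to 4 genes with the largest difference past 2-fold per comparison, plus genes set beside the members as part of their complex or family. Members, lists and rules were chosen with earlier results of these data known. The steps were tested on simulated data. Alternatives were another background correction (normexp, limma 3.58.1), 3 other scalings, other filters, probes, thresholds and the value table. Analyses used Python 3.11.15 and R 4.3.3. All arrays were on 1 slide.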

Additional observations from a re-analysis of the deposited data

Results flagged for a closer look

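For 3 probes the calcium difference had opposite signs in -/- and +/+ cells, with 1 array per group, and the difference between genotypes was not tested. For the second Myh8 probe the calcium difference in -/- cells minus that in +/+ cells was 1.64 on the log2 scale, from 0.92 in -/- cells and -0.73 in +/+ cells. For the second Tnnt3 probe it was 0.995, from 0.89 and -0.10. For Mylpf it was 0.282, from 0.28 and -0.00, which is less than its scanner error of 0.46.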

How the results depend on the processing

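Over 157 recomputed counts and medians of the members, 134 stayed within 1.5 times the main count or within the scanner error of the main median, 23 did not. Of these, 1 changed sign, the median of the genotype difference with calcium when no filter was used. Acta1, Myh3 and Tnnt3 kept a higher level in -/- cells in both conditions, and Myh3 a higher level with calcium in both genotypes, in 11 of 11 settings, the main one included. These are not 11 separate checks. The values of these genes were unchanged with outlier spots kept, with either filter and with the second Myh8 probe. The value table holds the same signals divided by a constant. In the genotype difference without calcium, 2 members were at least 2-fold higher and the median was 0.73 with normexp background correction, and the median was 0.93 with the mean of all probes of a gene, 1.05 with genes well above background on both arrays and 1.90 with scaling to the keratinocyte markers. Without a filter, 1 member was at least 2-fold lower there and the median was 0.22. With calcium the median was -0.13 without a filter, which brings in the undetected genes, and 1.57 with scaling to the keratinocyte markers. In the calcium difference of +/+ cells, 1 member was at least 2-fold higher with normexp, with the mean of probes (median 0.19), at 3-fold and with Myh8 read from its second probe (median 0.32). In that of -/- cells, 1 member was at least 2-fold higher at 3-fold and with the second Myh8 probe, and with genes well above background on both arrays 0 members were 2-fold lower and the median was 0.59, Myh4 having dropped out. In the difference between the calcium differences, 1 member was at least 2-fold higher with the mean of probes, with the second Myh8 probe and without a filter, and 1 at least 2-fold lower without a filter. The cause was not tested where none is named. Scaling to the keratinocyte markers and the second Myh8 probe were chosen after seeing the data; the scaling moved the median of all genes in the genotype differences to 0.26 without and 0.44 with calcium. No paired analysis was possible because each group has 1 array. Genes within a few fold of the limit of detection, such as Mylpf, have the least certain differences.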
